A study of Mus musculus with 25 samples.

Results

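Transcripts of 9 genes of the unfolded protein response and of the response to amino acid shortage (Atf4, Ddit3, Trib3, Asns, Chac1, Hspa5, Xbp1, Dnajb9 and Herpud1) were followed through 25 single-colour arrays of mouse liver. The genes were taken as listed, by the symbol matched to the accession printed with each probe, and where a gene had several probes the one of highest mean signal was used. All 9 were found among the 17016 symbols named on the array. The mice carried a deletion of Mcl-1, a protein that guards cells against apoptosis, in hepatocytes only, and were compared with hemizygous and wild-type littermates. Each knockout tumor was compared with the liver around it. The promoter that drove the recombinase and the deleted part of the gene are not given in the sources used here. The 2-month groups held 3 knockout, 3 hemizygous and 2 wild-type mice, and the 12-month groups 4 knockout and 3 wild-type mice. Another 3 knockout mice were 8 months old. The 7 knockout mice of 8 and 12 months each gave a tumor sample, labelled as hepatocellular carcinoma (HCC), and a non-tumor sample. No mouse was treated, and RNA came from whole liver homogenates. In bulk tissue, fewer cells of a type and less RNA per cell cannot be told apart.

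Proteins that misfold in the endoplasmic reticulum (ER) are sensed by IRE1, PERK and ATF6. IRE1 splices the Xbp1 transcript, ATF6 is cut to release a transcription factor, and PERK phosphorylates the translation factor eIF2alpha, which lowers general translation while that of Atf4 rises. GCN2 phosphorylates the same factor when amino acids run short, so ATF4 serves both responses. Hepatocytes secrete most plasma proteins and hold a large ER.

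The start regions of 4 of these genes are shown because they hold the letters of elements that the literature ties to these 2 branches. Each is the 200 bases before the RefSeq start of the gene on GRCm38.p6, 5′ to 3′, with the matches in capitals. Hspa5 (chr2:34771890-34772089, plus strand) holds the ER stress response element ERSE, which is CCAAT and CCACG with 9 bases of any kind between them. Herpud1 (chr8:94386229-94386428, plus strand) holds ERSE-II, which is ATTGG and CCACG with 1 base of any kind between them, and the C/EBP-ATF element TTGCATCA, with no overlap between them. Asns (chr6:7693210-7693409, minus strand) holds the nutrient-sensing element NSRE-1, TGATGAAAC, and Chac1 (chr2:119351042-119351241, plus strand) holds TTGCATCA.
Hspa5: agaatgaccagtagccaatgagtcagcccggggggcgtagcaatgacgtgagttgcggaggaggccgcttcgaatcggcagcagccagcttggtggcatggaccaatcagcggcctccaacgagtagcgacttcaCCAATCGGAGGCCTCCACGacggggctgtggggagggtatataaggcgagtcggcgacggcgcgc
Herpud1: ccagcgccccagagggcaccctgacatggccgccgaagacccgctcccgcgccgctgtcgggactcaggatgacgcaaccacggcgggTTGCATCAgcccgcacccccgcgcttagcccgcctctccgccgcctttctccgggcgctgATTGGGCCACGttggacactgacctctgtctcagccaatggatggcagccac
Asns: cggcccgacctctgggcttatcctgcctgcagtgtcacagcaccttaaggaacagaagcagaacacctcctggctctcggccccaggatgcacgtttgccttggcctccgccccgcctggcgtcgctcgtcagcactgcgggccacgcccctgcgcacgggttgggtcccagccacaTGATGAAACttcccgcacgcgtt
Chac1: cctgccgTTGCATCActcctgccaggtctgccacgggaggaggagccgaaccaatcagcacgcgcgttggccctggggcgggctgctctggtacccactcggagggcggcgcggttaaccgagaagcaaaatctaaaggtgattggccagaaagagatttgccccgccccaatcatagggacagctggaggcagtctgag

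Counted from the start, the Hspa5 match lay at -65 to -47, the ERSE-II match of Herpud1 at -52 to -42 and its C/EBP-ATF match at -112 to -105. In Asns the match lay at -23 to -15 and in Chac1 at -193 to -186. Both strands were searched. Of 32851 start regions of the same length, 0.103% held ERSE, 0.0274% ERSE-II, 0.639% TTGCATCA and 0.189% NSRE-1. In the regions of the other 5 genes none of these 4 strings occurred, which says only that the letters are not in this window.

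The arrays carried 41174 probes on 43379 spots, controls left out. The probes of all 9 genes were well above background on all 25 arrays and saturated on none. The share of all probes well above background was 60.3% to 84.9%. Below, a level is the log2 processed signal after subtraction of the 75th percentile of its array, and it is compared between samples for 1 gene at a time. The targeted gene, Mcl1, was lower in the knockouts at 2 months than in the wild-type mice by 2.46 (SE 0.37, adjusted p = 0.0395 in limma). It passed in 14 of 29 alternative fits (adjusted p 0.00248 to 0.623, difference -2.83 to -2.07). The fits in which it did not pass included those with slide as a block, in the compared groups alone and without any 1 of the 2-month knockout or wild-type arrays, but were not limited to them. Its differences of -1.54 to the hemizygous mice (adjusted p = 0.138 in limma) and of -1.69 to the wild type at 12 months (adjusted p = 0.0908) did not pass. Whether its probes lie in the deleted part is not known here, so the check rests on the level alone. Hepatocyte markers were well above background on every array (8 of 8), with a mean level per array of 7.17 to 8.39.

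None of the 9 genes passed an adjusted p of 0.05 in any of the 12 comparisons tested with limma. Shares of all genes are shares of all features tested, 22878 to 27024 by comparison. In knockout against wild-type mice at 2 months these were 15609 genes with a symbol and 11407 probes without one, each counted singly. The share past that threshold was itself small, 0.0222% in knockout against wild-type mice at 2 months, 0.0518% in knockout against hemizygous mice, 0.0185% in knockout non-tumor against wild-type liver at 12 months, 0.0407% in wild types of 12 against 2 months, 0.0074% in knockouts of 12 against 2 months and 0% in the other 7, tumor against non-tumor tissue included. In those 7 an unadjusted p under 0.05 was found for 1.21% to 16% of all genes. At an unadjusted p of 0.05, 2 of the 9 genes passed in the knockout against the wild type at 2 months (8.91% of all genes) and 3 of 9 in the knockout against the hemizygous mice (8.29%). With slide as a random block these counts were 1 and 3, and with slide as a fixed block 0 and 0. No slide held both wild-type and knockout arrays of 2 months. The fixed block therefore compares them through the hemizygous mice alone, on 2 slides, and uses 1 knockout array, that of animal 137. The differences at 2 months were of mixed sign. Hspa5 and Ddit3 were on the higher side in the knockout, Herpud1 and Chac1 on the lower side, and Xbp1 and Dnajb9 near 0.

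**Figure D1:**
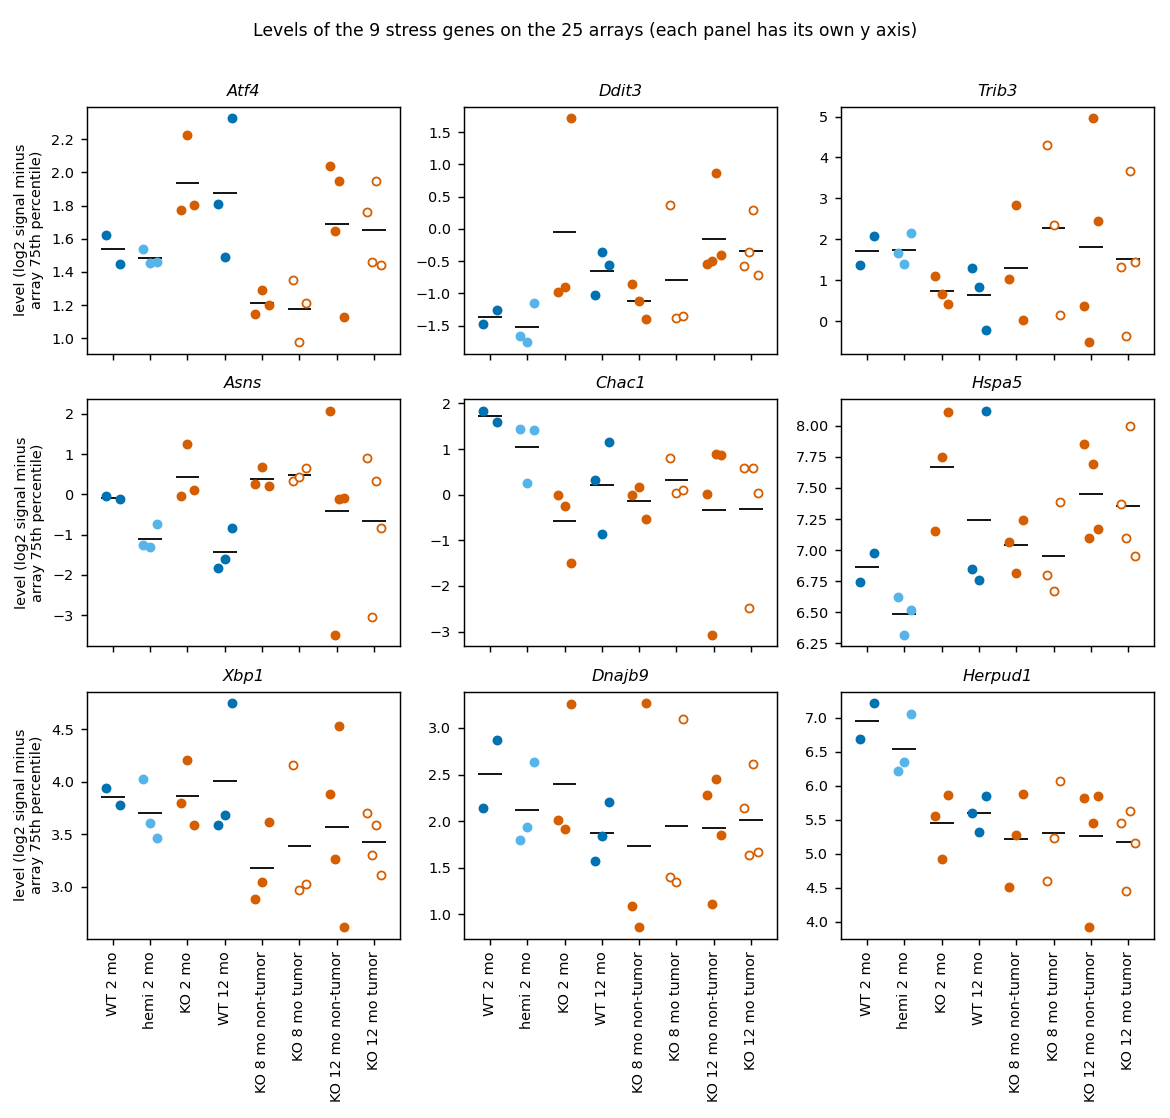
Level of each of the 9 genes on the 25 arrays (log2, relative to the 75th percentile of the array, 1 y axis per gene). Each point is 1 array, filled for liver and open for tumor, and the bar is the group mean. Herpud1 lay at 6.21 or higher on the 5 arrays of 2-month wild-type and hemizygous mice and at 6.07 or lower on the other 20.

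Hspa5 encodes BiP, the main ER chaperone and the protein that holds the 3 sensors inactive. At 2 months its level was 6.75 and 6.98 in the wild-type livers, 6.63, 6.32 and 6.52 in the hemizygous livers and 7.15, 7.75 and 8.11 in the knockout livers. All 3 knockout livers were thus above all 5 controls. The difference was 0.81 (SE 0.40, 1.75-fold, adjusted p = 0.592) against the wild type and 1.18 (SE 0.36, 2.27-fold, adjusted p = 0.373) against the hemizygous mice. On the 1 slide that held both knockout and hemizygous arrays (1 against 2) it was 0.68. With slide as a fixed block the difference to the wild type was 0.34, and with normexp background correction 1.28. At 12 months the separation was not seen, with 6.85, 6.76 and 8.12 in the wild type and 7.86, 7.10, 7.69 and 7.17 in knockout non-tumor liver (difference 0.21, SE 0.34). Leaving out 1 array at a time gave -0.03 (without wild type 641) to 0.65 (without wild type 1110), and the other fits 0.21 to 0.69. At 8 months the knockout non-tumor livers gave 7.06, 6.82 and 7.24. By group mean Hspa5 was highest in the 2-month knockout (7.67 ± 0.48 SD, n = 3) and lowest in the 2-month hemizygous mice (6.49 ± 0.16, n = 3). Of the 7 steps between neighbouring groups in that order, only that from the 2-month wild type to the hemizygous mice exceeded the pooled SD of the pair.

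Xbp1 encodes the transcription factor made from the IRE1-spliced transcript. The array probe was not analysed for splicing, so the values are total transcript. Its level at 2 months was 3.94 and 3.78 in the wild type, 4.02, 3.60 and 3.47 in the hemizygous mice and 3.79, 4.21 and 3.59 in the knockout. The groups overlapped, and the difference of knockout and wild type was 0.00 (SE 0.49, 95% interval -1.04 to 1.05). Later levels were 3.59, 3.68 and 4.75 in the 12-month wild type, 2.88, 3.04 and 3.61 in 8-month knockout non-tumor liver and 3.88, 3.26, 4.53 and 2.61 in that of 12 months. By group mean they ran from 4.01 ± 0.65 (12-month wild type, n = 3) to 3.18 ± 0.38 (8-month knockout non-tumor liver, n = 3), and no step between neighbours exceeded the pooled SD.

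Dnajb9 encodes ERdj4, an ER co-chaperone of BiP and a target of XBP1. Its level was 2.14 and 2.87 in the 2-month wild type, 1.80, 1.93 and 2.63 in the hemizygous mice and 2.01, 1.92 and 3.26 in the knockout. Only 1 knockout, animal 69, was above the controls. The difference to the wild type was -0.11 (SE 0.65), and the gene's other 2 probes gave 0.33 and 0.19, so the sign of the difference depended on the probe. In the 12-month wild type the levels were 1.57, 1.83 and 2.20. Among older knockouts the non-tumor levels were 1.08, 0.86 and 3.27 at 8 months and 2.28, 1.11, 2.45 and 1.85 at 12 months. The value of 3.27, from animal 934, was the highest of the 25 arrays. From the highest group mean (2.50 ± 0.52, 2-month wild type, n = 2) to the lowest (1.74 ± 1.33, 8-month knockout non-tumor liver, n = 3), no step between neighbours exceeded the pooled SD.

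Herpud1 encodes an ER membrane protein of the degradation complex that removes misfolded proteins. At 2 months its level was 6.69 and 7.22 in the wild type, 6.21, 6.35 and 7.06 in the hemizygous mice and 5.56, 4.93 and 5.86 in the knockout. All 3 knockout livers were below all 5 controls. The difference was -1.50 (SE 0.55, adjusted p = 0.448) against the wild type, a ratio of 0.353, and -1.09 (SE 0.49, adjusted p = 0.575) against the hemizygous mice. Within the shared slide the knockout differed from the hemizygous arrays by -0.72, and with slide as a fixed block from the wild type by -0.61. The 12-month wild type was at 5.60, 5.33 and 5.85 and so lay in the range of the 2-month knockout. Its difference to the 2-month wild type was -1.36 (SE 0.55, adjusted p = 0.401), in a comparison that shares the 2 young wild-type arrays with the one above. Knockout non-tumor liver was at 4.51, 5.29 and 5.88 at 8 months and at 5.82, 3.92, 5.45 and 5.86 at 12 months, which overlapped the wild type of that age (difference -0.33, SE 0.46). In the order of the group means, the 2-month wild type (6.95 ± 0.38, n = 2) and hemizygous mice (6.54 ± 0.45, n = 3) came first and 12-month knockout tumors last (5.18 ± 0.52, n = 4). Only the step from the hemizygous mice to the 12-month wild type exceeded the pooled SD, and those groups did not overlap.

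The arrays with high Herpud1 differed from the others in clock genes as well. Arntl, the clock activator also called Bmal1, was at -2.77 to -1.69 on the 5 arrays of 2-month wild-type and hemizygous mice and at -1.56 to 2.51 on the other 20, so the split was the same as for Herpud1. The 2-month knockouts had Arntl levels of 2.51, 2.17 and 0.37. Dbp, a clock output gene, was at 6.25 to 7.19 on those 5 arrays and at -0.27, 3.73 and 4.69 in the 2-month knockouts. Over all the other 20 arrays it was at -0.27 to 6.56, which overlapped the 5. Of 14 clock genes, 10 had a negative difference of knockout and wild type at 2 months (52.5% of all genes). At an unadjusted p under 0.05 there were 7 on the lower side (4.61% of all genes) and 2 on the higher (4.3%). None passed the adjusted threshold. Animal 934 was the one older knockout with Arntl below 0 (-1.40 in non-tumor liver, -1.56 in the tumor), and both its samples had the highest Herpud1 (5.88 and 6.07) and Dnajb9 (3.27 and 3.10) of the 14 samples of older knockouts. The time of day of collection is not given in the sources used here. The part of the clock in the values of Herpud1, Dnajb9 and the other stress genes was not tested. At 2 months it cannot be told apart from the genotype for any of them. This limit therefore also holds for the 2-month knockout differences of Hspa5, Chac1, Atf4, Ddit3, Trib3 and Asns.

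**Figure D2:**
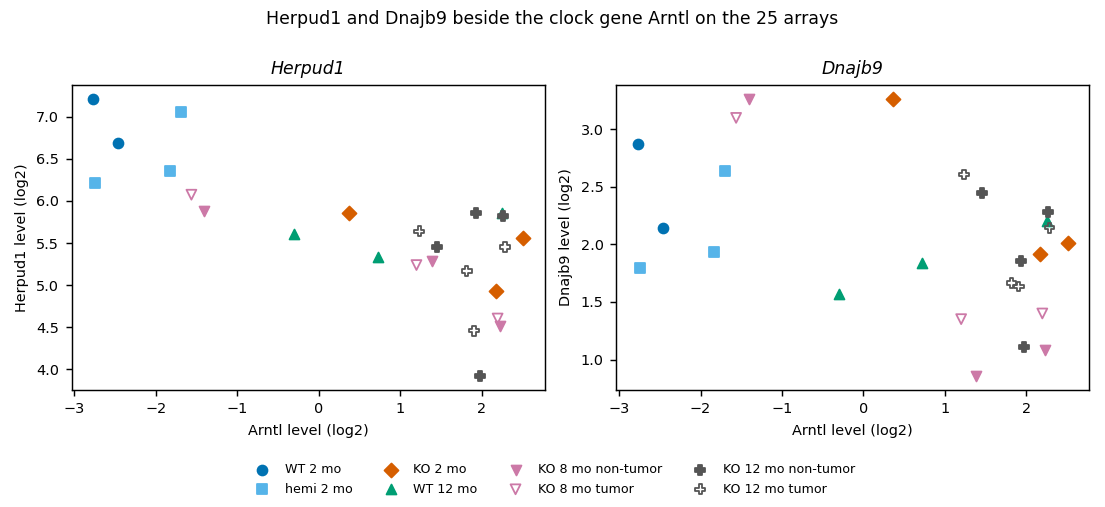
Levels of Herpud1 (left) and Dnajb9 (right) against the level of the clock gene Arntl on the 25 arrays (both axes log2, 1 point per array, open symbols for tumors). The 5 arrays of 2-month wild-type and hemizygous mice lie at the left with Arntl at -1.69 or lower and Herpud1 at 6.21 or higher.

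Atf4, the transcription factor at the head of the amino acid branch, is controlled mainly at translation, so its transcript need not follow its activity. Its level at 2 months was 1.62 and 1.45 in the wild type, 1.54, 1.45 and 1.46 in the hemizygous mice and 1.77, 2.23 and 1.80 in the knockout. The 3 knockouts were above the 5 controls by a small step, 0.40 (SE 0.30, adjusted p = 0.768) against the wild type and 0.45 (SE 0.27, adjusted p = 0.716) against the hemizygous mice. In 8-month knockout non-tumor liver it was 1.14, 1.29 and 1.20, below all 2-month knockouts (difference -0.72, SE 0.27, adjusted p = 0.226). This was the only one of the 9 genes with an unadjusted p under 0.05 in that comparison, where 16% of all genes had one, and the only one without overlap (24.1%). The 12-month wild type gave 1.81, 1.49 and 2.33, and the knockout non-tumor liver of that age 2.04, 1.65, 1.95 and 1.13. Atf4 varied least of the 9 genes within groups (residual SD 0.29 over the 18 non-tumor arrays, smaller than in all but 14.3% of genes). By group mean it ran from 1.93 ± 0.25 (2-month knockout, n = 3) to 1.18 ± 0.19 (8-month tumors, n = 3). Only the step from the hemizygous mice down to 8-month knockout non-tumor liver exceeded the pooled SD.

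Ddit3 encodes CHOP, a transcription factor downstream of ATF4 that is linked to cell death under prolonged ER stress. At 2 months its level was -1.48 and -1.25 in the wild type, -1.66, -1.76 and -1.14 in the hemizygous mice and -0.98, -0.90 and 1.72 in the knockout. The knockouts were above the controls, but 2 of the 3 by little and animal 69 by far. The difference was 1.31 (SE 0.65, 2.48-fold, adjusted p = 0.591) against the wild type, and 0.43 when animal 69 was left out. Against the hemizygous mice it was 1.47 (SE 0.58, adjusted p = 0.506), and 0.58 without that animal. The 12-month wild type was at -1.03, -0.36 and -0.56 and the knockout non-tumor liver of that age at -0.55, -0.50, 0.86 and -0.41, which overlapped. At 8 months it was at -0.85, -1.11 and -1.40, below all 4 non-tumor livers of 12 months (difference of 12 and 8 months 0.97, SE 0.54, adjusted p = 0.918). Ddit3 was the only one of the 9 genes without overlap there, where 6.31% of all genes had none. By group mean it was highest in the 2-month knockout (-0.05 ± 1.54, n = 3) and lowest in the hemizygous mice (-1.52 ± 0.33, n = 3), and only the step from 8-month knockout non-tumor liver to the 2-month wild type exceeded the pooled SD.

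Animal 69 was also the highest of the 2-month knockouts for Hspa5 and Dnajb9. It was the one 2-month knockout with Xist, which only cells with an inactive X chromosome express, well above background (1 of 3, against 1 of 2 wild-type and 3 of 3 hemizygous mice). The part of sex in these values was not tested.

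Trib3, a pseudokinase induced by ATF4 and CHOP that dampens their output, varied more within groups than 94.6% of genes (residual SD 1.41). At 2 months its level was 1.37 and 2.07 in the wild type, 1.66, 1.40 and 2.14 in the hemizygous mice and 1.11, 0.65 and 0.41 in the knockout. The knockouts were below all 5 controls (difference to the wild type -0.996, SE 1.19, adjusted p = 0.88), opposite in sign to Ddit3. With slide as a fixed block that difference was 0.0046. At 12 months the knockout non-tumor livers spread from -0.52 to 4.97 (0.38, -0.52, 4.97 and 2.45), against 1.30, 0.84 and -0.22 in the wild type. The difference of 1.18 (SE 0.999, adjusted p = 0.593) was -0.10 with the gene's second probe, so it depended on the probe. It was 0.13 without animal 702 and 1.96 without animal 638. The 8-month knockout non-tumor livers were at 1.02, 2.85 and 0.02. By group mean Trib3 ran from 2.27 ± 2.08 (8-month tumors, n = 3) to 0.64 ± 0.78 (12-month wild type, n = 3), and no step between neighbours exceeded the pooled SD.

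Asns encodes asparagine synthetase, whose transcript is a classic readout of ATF4. At 2 months its level was -0.05 and -0.12 in the wild type, -1.26, -1.31 and -0.73 in the hemizygous mice and -0.05, 1.25 and 0.11 in the knockout. The knockouts lay above the hemizygous mice by 1.53 (SE 0.92, adjusted p = 0.715) and above the wild type by 0.52 (SE 1.03, adjusted p = 0.931). At 12 months the wild type was at -1.84, -1.61 and -0.83, and knockout non-tumor liver at 2.08 (animal 1109), -3.49 (animal 638), -0.11 (animal 702) and -0.10 (animal 793). Animal 638 was thus below every wild type and the other 3 above every wild type. With all 4 the difference was 1.02 (SE 0.86, adjusted p = 0.594). Without animal 638 it was 2.05 (SE 0.53, adjusted p = 0.0292), past the threshold, in a fit in which 10.6% of all genes passed. Without animal 1109 it was 0.19 (SE 0.71, adjusted p = 0.955). The 8-month knockout non-tumor livers were close to one another at 0.25, 0.67 and 0.22. By group mean Asns ran from 0.48 ± 0.16 (8-month tumors, n = 3) to -1.43 ± 0.52 (12-month wild type, n = 3), and only the step from 8-month knockout non-tumor liver to the 2-month wild type exceeded the pooled SD.

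Chac1 encodes an enzyme that breaks down glutathione and is induced through ATF4 and CHOP. At 2 months its level was 1.85 and 1.58 in the wild type, 1.45, 0.27 and 1.42 in the hemizygous mice and -0.01, -0.25 and -1.49 in the knockout. All 3 knockouts were below all 5 controls. The difference was -2.30 (SE 0.95, adjusted p = 0.508) against the wild type, a ratio of 0.204, and -1.63 (SE 0.85, adjusted p = 0.655) against the hemizygous mice. Within the shared slide it was -0.86, and against the wild type with slide as a fixed block -1.16. The 12-month wild type, at 0.32, -0.86 and 1.16, was below the young wild type too (difference -1.51, SE 0.95, adjusted p = 0.59, again with the 2 young wild-type arrays as the reference). Knockout non-tumor liver was at -0.01, 0.16 and -0.54 at 8 months and at 0.01, -3.07, 0.88 and 0.87 at 12 months, where animal 638 again stood lowest. The 12-month difference of knockout and wild type was -0.53 (SE 0.80) with this animal and 0.38 without it. With scan day as a block it was 0.54, a value that rests on 1 wild-type array (animal 641), since the other 2 were scanned on another day. By group mean Chac1 was highest in the 2-month wild type (1.71 ± 0.18, n = 2) and lowest in the 2-month knockout (-0.58 ± 0.80, n = 3). The steps from the wild type to the hemizygous mice and from these to the 8-month tumors exceeded the pooled SD.

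**Figure D3:**
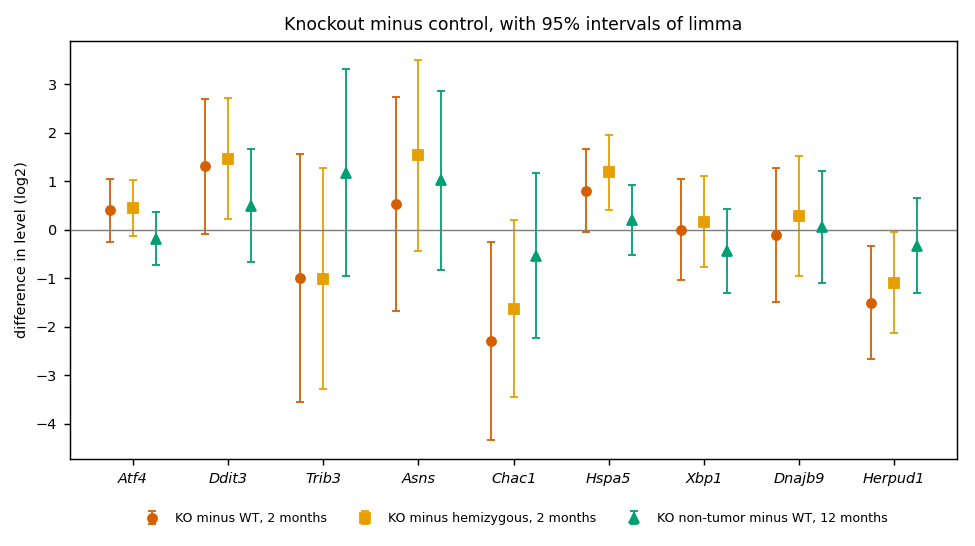
Difference in level (log2) of knockout and control for the 9 genes, with the 95% interval of limma: knockout minus wild type and knockout minus hemizygous at 2 months, and knockout non-tumor minus wild type at 12 months. At 2 months the values for Hspa5, Ddit3, Atf4 and Asns lie above 0 and those for Herpud1, Chac1 and Trib3 below it. Against the wild type of 2 months only the intervals of Herpud1 and Chac1 exclude 0. Against the hemizygous mice only those of Hspa5, Ddit3 and Herpud1 do. At 12 months all 9 intervals include 0. The intervals are not adjusted for the number of genes.

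Over the 9 genes, 7 had knockout livers outside the range of the wild type at 2 months, against 37.3% of all genes. Asns counts among them by a narrow margin, with knockout 137 at -0.0515 and wild type 31 at -0.0542. These were 4 above (16.8% of all genes) and 3 below (20.5%). Against the hemizygous mice it was also 7 (25.4% of all genes), 4 above (15.2%) and 3 below (10.2%). Both comparisons use the same knockout arrays. The 9 genes were chosen with earlier results of these data known, so these counts are descriptions. At 12 months none of the 9 separated knockout non-tumor liver from wild type (10.4% of all genes did), and none had an unadjusted p under 0.05 (17.2% did). The median difference of the 9 genes was 0.00 against the wild type at 2 months, beside -0.04 over all genes, and 0.05 at 12 months, beside -0.12. The change in the genotype difference between 2 and 12 months was tested itself and passed for none of the 9, with an unadjusted p under 0.05 for none either (9.64% of all genes), and with sizes from -0.81 (SE 0.85) for Ddit3 to 2.18 (SE 1.56) for Trib3.

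Between hemizygous and wild-type mice at 2 months none of the 9 genes passed, also at an unadjusted p of 0.05 (1.21% of all genes). Asns, Chac1 and Hspa5 were lower in every hemizygous than in either wild-type liver (18.5% of all genes did not overlap, 9.98% on that side), with differences of -1.01 (SE 1.03), -0.67 (SE 0.95) and -0.38 (SE 0.40). On the slide that held 1 hemizygous and both wild-type arrays they were -0.64, -0.29 and -0.35. In wild-type mice of 12 against 2 months, Herpud1 alone had an unadjusted p under 0.05 (10.6% of all genes). Of the 9 genes, 5 did not overlap between these ages (27.8% of all genes), Herpud1, Chac1, Asns and Trib3 on the lower side at 12 months (13% of all genes) and Ddit3 on the higher (14.8%). In knockout non-tumor liver of 12 against 2 months none of the 9 genes had an unadjusted p under 0.05 (17.2% of all genes). None was without overlap (20.3%). In that of 12 against 8 months none had an unadjusted p under 0.05 (5.31%).

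The 7 tumors were set against the non-tumor liver of their own animals. None of the 9 genes had an unadjusted p under 0.05 (4.07% of all genes) and none the same sign in all 7 animals (1.44%). The differences ran from -0.11 (SE 0.23) for Asns to 0.25 (SE 0.50) for Trib3. For Hspa5 the 95% interval was -0.41 to 0.22 and for Dnajb9 -0.20 to 0.48, so that changes of 1 log2 unit lie outside both, while for Trib3 it was -0.88 to 1.38. Tumor levels of Hspa5 were 6.80, 6.67 and 7.38 at 8 months (animals 1347, 1287 and 934) and 7.37, 7.10, 8.00 and 6.95 at 12 months (animals 1109, 638, 702 and 793). The largest difference to an animal's own non-tumor level was -0.49, in animal 1109. Herpud1 in the tumors was 4.60, 5.24 and 6.07, then 5.45, 4.46, 5.64 and 5.17 in the same order of animals, again highest in animal 934 and lowest in animal 638.

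Asns in the tumors was 0.33, 0.44 and 0.65 at 8 months and 0.89, -3.04, 0.33 and -0.83 at 12 months, and Chac1 0.81, 0.05 and 0.11, then 0.59, -2.48, 0.58 and 0.03. Animal 638 was lowest for both genes in its tumor as in its non-tumor liver, in 2 samples hybridised to separate arrays of 1 slide that also held both samples of animal 702. Trib3 was 4.31, 2.35 and 0.16 at 8 months and 1.32, -0.36, 3.67 and 1.43 at 12 months. Animal 702 was high in both tissues (4.97 in non-tumor liver), while animal 1347 was high in its tumor alone (4.31 against 1.02). The tumor array of animal 1347 was on another slide and scanned on another day than its non-tumor array. The part of slide and scan day in that difference was not tested. The same animal had tumor levels of Ddit3 (0.37 against -0.85) and Xbp1 (4.16 against 2.88) above those of its non-tumor liver. Among the 14 samples of older knockouts the SD of Trib3 was larger than that of 98.8% of genes, that of Asns larger than 96.9% and that of Chac1 larger than 90.7%.

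**Figure D4:**
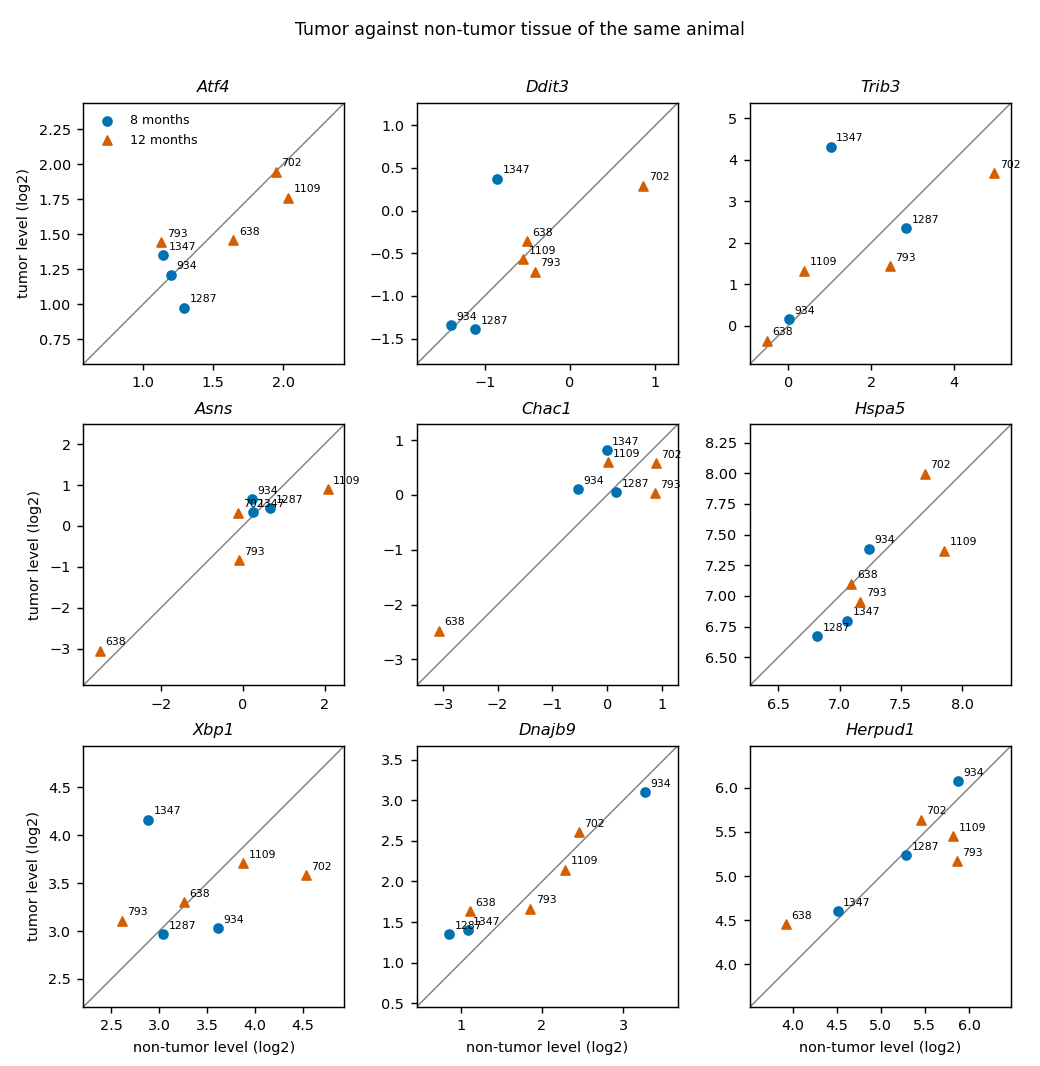
Tumor level against non-tumor level (log2) of the 9 genes in the 7 knockout animals with tumors, labelled by animal number, with circles for 8 and triangles for 12 months. The grey line marks equal levels. Animal 638 lies far below the others for Asns and Chac1, at -3.49 and -3.07 in non-tumor liver, and animal 1347 above the line for Trib3.

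Whether an animal's level in non-tumor liver went with that in its tumor was tested by correlation for each gene. Pearson's r over the 7 animals was 0.96 for Dnajb9 (exact permutation p = 0.000198, the smallest that 5040 orders allow, two-sided, Spearman's rho 1, exact p = 0.000397). For Asns r was 0.93 (exact permutation p = 0.00377, rho 0.86, exact p = 0.0238), for Hspa5 0.81 (p = 0.028, rho 0.86, p = 0.0238), for Herpud1 0.85 (p = 0.0167, rho 0.75, p = 0.0663) and for Atf4 0.79 (p = 0.0383, rho 0.61, p = 0.167), all by exact permutation. These 5 of the 9 genes had an exact p under 0.05, against 18.2% of 24223 features. Unlike the 9 genes, those features include some that were not well above background on every array. None of the 24223 passed after Benjamini-Hochberg adjustment over all of them (adjusted p = 0.107 for Dnajb9, 0.157 for Asns, 0.229 for Hspa5, 0.204 for Herpud1 and 0.251 for Atf4, exact permutation). For Chac1 r was 0.89 (exact permutation p = 0.0784, rho 0.14, exact p = 0.783), for Ddit3 0.67 (p = 0.0885, rho 0.50, p = 0.267), for Trib3 0.65 (p = 0.119, rho 0.79, p = 0.048) and for Xbp1 0.16 (p = 0.717, rho 0.18, p = 0.713), all exact, with p adjusted over all genes of 0.32, 0.334, 0.375 and 0.858 in that order.

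After the 2 animals farthest from the median non-tumor level were left out, r stayed at 0.89 for Dnajb9 and 0.84 for Hspa5. It was 0.53 for Asns, 0.48 for Trib3, 0.30 for Herpud1, 0.26 for Ddit3, 0.19 for Atf4, -0.25 for Chac1 and -0.18 for Xbp1. The permutations treat the 7 animals as exchangeable, although they were of 2 ages and both tissues of 6 animals shared a slide (3 slides). With levels centred within each age r was 0.96 for Dnajb9, 0.94 for Asns, 0.91 for Chac1, 0.86 for Herpud1, 0.74 for Hspa5, 0.71 for Trib3, 0.65 for Ddit3, 0.59 for Atf4 and 0.16 for Xbp1. The part of slide was not tested. The median r was 0.81 for the 9 genes and 0.46 for all genes. The 9 genes were well above background on every array, while all genes include features that were not. Genes of like signal were not compared, so the higher median is not shown to be particular to these 9. The difference of tumor and non-tumor tissue between 12 and 8 months passed the threshold for none of the 9 and had an unadjusted p under 0.05 for none (6.22% of all genes). Its value was below 0 for all 9 (40.5% of all genes), from -1.28 (SE 0.95) for Trib3 to -0.004 (SE 0.30) for Atf4. The 8-month side held 3 animals, among them animal 1347, whose tumor and non-tumor arrays were on different slides and scan days. Differences of tumor and non-tumor tissue in that animal ran from -0.27 for Hspa5 to 3.29 for Trib3. The signs were not counted without it. Between tumors of 12 and 8 months none passed either (3.74% at an unadjusted p of 0.05), with Atf4 alone higher in all tumors of 12 months (difference 0.47, SE 0.27, 4.02% of all genes without overlap).

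Genes of the same pathways that are not among the 9 were followed in 6 lists, and none passed the adjusted threshold in any of the 12 comparisons. Their counts of positive and negative differences were made under the main scaling alone. The lists were chosen with earlier results of these data known, so these counts are descriptions. In the list of ATF4 and amino acid response genes, 28 of 41 had a positive difference of knockout and wild type at 2 months (47.5% of all genes), 9 with an unadjusted p under 0.05 on the higher side and 3 on the lower (4.3% and 4.61% of all genes). The list's median difference was 0.34, beside -0.04 over all genes. Mthfd2, a mitochondrial folate enzyme, differed by 2.65 (SE 0.61, adjusted p = 0.214) and Gdf15, a secreted stress hormone, by 2.69 (SE 0.81, adjusted p = 0.344). On the lower side were Slc38a2, an amino acid transporter, at -1.75 (SE 0.37, adjusted p = 0.182) and Cebpb, a transcription factor partner of ATF4, at -1.43 (SE 0.43, adjusted p = 0.351). Of the 9 genes, Chac1 and Trib3 were on the lower side as well, and Asns and Ddit3 on the higher. List genes of both signs are named here, so a shared sign says nothing about a link.

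ER chaperones and folding enzymes mostly had differences of the same sign as Hspa5. Against the hemizygous mice 19 of 21 were positive (53.3% of all genes), 5 with an unadjusted p under 0.05 (3.72% of all genes on that side), with a median of 0.38 beside 0.04 over all genes. Sdf2l1, an ER stress-induced ER protein, differed by 2.16 (SE 0.61, adjusted p = 0.313), Manf, a secreted ER stress protein, by 1.598 (SE 0.51, adjusted p = 0.394), Creld2, a target of ATF6, by 1.85 (SE 0.70, adjusted p = 0.485), and Pdia6, a disulfide isomerase, by 0.81 (SE 0.33, adjusted p = 0.525). Against the wild type 17 of 21 were positive (47.5% of all genes), 1 of them with an unadjusted p under 0.05 (Sdf2l1, 1.76, SE 0.69), beside 4.3% of all genes on that side. Of 26 ER degradation and translocation genes, 18 were positive against the hemizygous mice and 3 had an unadjusted p under 0.05, Derl3 (3.03, SE 0.88), the selenoprotein gene Selenos (0.91, SE 0.32) and Syvn1, the ubiquitin ligase of that complex (1.32, SE 0.46), while Herpud1 of the same complex was at -1.09. Against the wild type 16 of 26 were positive (47.5% of all genes) and none had an unadjusted p under 0.05. The hemizygous values were below the wild type in sign for 26 of these 26 genes and 18 of the 21 chaperones (55.7% of all genes), none with an unadjusted p under 0.05. Derl3 is also a marker of plasma cells. The other 9 genes of the B and plasma cell list had a mean level per array of -2.84 to -1.62 in the 2-month knockout and of -3.32 to -2.93 in the 5 controls, and the part of these cells was not tested.

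The other 3 lists had no gene with an unadjusted p under 0.05 in either comparison. Of the stress sensors, regulators and death outputs 7 of 19 were positive against the wild type, beside 47.5% of all genes (Creb3l3, a liver factor cut like ATF6, -0.69, SE 0.36, Atf6b, a relative of ATF6, 0.74, SE 0.42). Of the mitochondrial unfolded protein response genes 2 of 12 were positive (Dnaja3, a mitochondrial co-chaperone, -0.57, SE 0.28) and of the cytosolic heat shock genes 5 of 11 (Hspa4l, -0.69, SE 0.35).

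**Figure D5:**
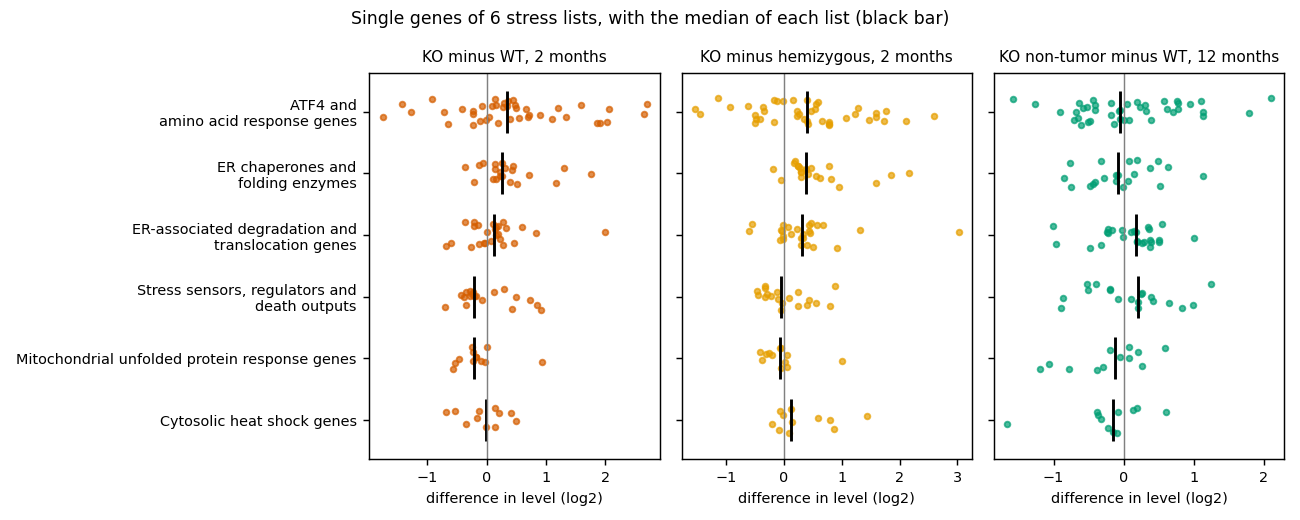
Difference in level (log2) for single genes of 6 pathway lists that do not include the 9 genes, in 3 comparisons of knockout and control. Each point is a gene and the black bar the list's median. The medians of the ATF4 list and of the ER chaperones are 0.34 and 0.26 against the wild type at 2 months and -0.06 and -0.08 at 12 months.

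At 12 months the ATF4 list was split evenly between knockout non-tumor liver and wild type (20 of 41 positive, 43.3% of all genes, median -0.06). Shmt2, a serine-glycine enzyme of mitochondria, was at -1.26 (SE 0.33, adjusted p = 0.109) and Atf3, a stress-induced factor, at 2.11 (SE 0.79, adjusted p = 0.188). Of the chaperones 9 of 21 were positive, with P4hb, a disulfide isomerase, at -0.76 (SE 0.23, adjusted p = 0.132), and among mitochondrial genes the chaperone Trap1 was at -1.06 (SE 0.20, adjusted p = 0.0927). Eif2ak2, the interferon-induced eIF2alpha kinase PKR, was at 0.84 (SE 0.22, adjusted p = 0.112). In 8-month against 2-month knockouts 17 of 21 chaperones were negative (51.5% of all genes), 8 with an unadjusted p under 0.05 (7.76% of all genes on that side), with Uggt1, a folding sensor of glycoproteins, at -1.08 (SE 0.30) and Sdf2l1 at -1.73 (SE 0.61), beside -0.63 (SE 0.36) for Hspa5. In tumor against non-tumor tissue Fgf21, a hormone gene induced through ATF4, differed by 1.24 (SE 0.40) and Slc7a5, an amino acid transporter, by -0.45 (SE 0.15, lower in all 7 animals), both with an adjusted p of 0.999.

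Of the markers of other cells and of dividing cells, none passed the adjusted threshold in the knockout against the wild type at 2 months. Against the hemizygous mice 2 neutrophil markers passed it on the higher side (0.0333% of all genes). Against the wild type 8 of 11 mitosis genes, 6 of 11 macrophage markers and 5 of 8 stellate cell and matrix markers were higher at an unadjusted p under 0.05. The share of all genes was 4.3%, and none of these 3 lists had a gene lower at that threshold. All 11 macrophage markers had a positive difference (47.5% of all genes), with a mean level per array of 1.78 to 1.81 in the knockout and -0.09 to -0.08 in the wild type. For the 6 neutrophil markers tested it was 6 of 6 and for the 11 mitosis genes 11 of 11 (mean level per array -1.44 to 1.27 against -2.89 to -2.78). Stellate cell and matrix markers were positive in 7 of 8. Hepatocyte markers were positive in 4 of 8 (7.96 to 8.38 against 8.17 to 8.31). At 12 months 7 of 8 hepatocyte markers were lower in knockout non-tumor liver than in the wild type (56.7% of all genes). Their mean level per array was 7.28 to 7.76 against 7.92 to 8.39. All 11 mitosis genes and 8 of 11 macrophage markers were higher there at an unadjusted p under 0.05 (7.97% of all genes). None of these passed the adjusted threshold. The part of these cells in the values of the 9 genes was not tested.

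For each of the 9, the genes whose levels were most like it over the 25 arrays were searched. The search covered 13258 genes with a symbol, well above background on at least 13 arrays and without missing values. Hspa5 was most like Manf (r = 0.93) and Creld2 (r = 0.91), both on the chaperone list. Herpud1 was most like Yod1 (r = 0.86) and Cdv3 (0.85), Dnajb9 like Hipk1 (0.86) and Wfs1 (0.85), and Xbp1 like Ints11 (0.84). Ddit3 was most like Ptprk (0.84) and Alkbh2 (0.83), Trib3 like Bex2 (0.88) and Maff (0.84), and Asns like Zc3h15 (0.81) and Agap1 (0.80). Chac1 was most like Slc25a33 (0.79) and Mug1 (0.77), and Atf4 like Map7d1 (0.80) and Mbnl2 (0.76). These are descriptions, since the arrays include 2 samples of each of 7 animals and the groups differ. Among the 9 genes themselves, with levels centred within each group, the closest pairs were Atf4 and Xbp1 (r = 0.81), Asns and Chac1 (0.77) and Dnajb9 and Herpud1 (0.77), while Trib3 and Dnajb9 were at -0.11. Animal 638 enters the pair of Asns and Chac1 with the lowest level of both genes.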

How the data were processed

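RNA of 25 liver samples was labelled with Cy3 and hybridised to Agilent arrays. The deposited array files hold intensity values by Agilent Feature Extraction, 1 per spot, whose processed signal is background-subtracted and not normalised between arrays, per the file headers. The authors also deposited a matrix of log2 values. It was used as an alternative only, and its values rank as the log2 median signal without background subtraction does, with column medians of 6.57 to 6.58. How it was normalised is not given in the sources used here. The submitters' processing notes name limma.

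Spots marked as outliers were left out, log2 processed signal was averaged per probe, and the array's 75th percentile was subtracted. Accessions were matched to the RefSeq table of GRCm38.p6 (24375 of 41174 probes, 59.2%). Probes without a symbol were kept as features of their own and count among all genes. A gene was kept when well above background on as many arrays as the smallest group holds (2 of 18, 3 of 14 or 3 of 7). limma 3.58.1 in R 4.3.3 fitted 18 non-tumor arrays as 6 groups (12 residual degrees of freedom), 14 paired arrays with the animal as a block (6, or 5 with an age term) and 7 tumor arrays as 2 groups (5), two-sided, with Benjamini-Hochberg adjustment over all genes and a threshold of 0.05. The fits were tested on simulated data. Samples are separate mice except the 7 pairs, which share the animal number in the labels. Per-gene correlations of both tissues are in the report.

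Named are Mcl1, the 9 genes, up to 4 genes of each pathway list with the smallest p, Arntl, Dbp and Xist, and the 2 genes most like each of the 9. For Xbp1 1 of these is not reported here. The list genes printed are a selection of those. The 9 genes and the lists were chosen with earlier results of these data known. The planned background correction on the mean signal used the median signal, which is what the files hold. Alternatives were normexp (offset 50) with quantile normalisation, quantile normalisation alone, the deposited matrix, other filters, several probes averaged, limma's trended and robust variance, scan day or slide as a block, the compared groups alone, no animal block and leaving out each sample. Precision is limited by the number of arrays, 2 to 4 per group.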

Additional observations from a re-analysis of the deposited data

Results flagged for a closer look

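Of 36 sets of 4 or 7 values examined for a sample far from the others, 2 held one, and chance gives about 1 in 20. Both concern Ddit3. In knockout non-tumor liver of 12 months animal 702 had a level of 0.86, and the nearest of the other 3 was -0.41. Its tumor was at 0.29, the highest of the 4 tumors of that age. In the differences of tumor and non-tumor tissue animal 1347 had 1.23, and the nearest of the other 6 was 0.14. The 2 arrays of that animal were on different slides with different scan days, and the part of this was not tested.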

How the results depend on the processing

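The number of the 9 genes past the threshold was 0 in each of the 12 comparisons and stayed 0 in 307 of 308 alternative fits. The exception was knockout non-tumor against wild-type liver at 12 months, where leaving out 1 array at a time gave 0 to 1 genes, the 1 being Asns without animal 638. Without the animal block (no pairing) 0 of the 9 genes passed in tumor against non-tumor tissue and in its difference between ages, as with it. Of 1449 differences of single genes in 6 comparisons, 1384 kept their sign. Many of these alternatives could not change a difference, such as leaving out an array of a group not compared, another filter or limma's variance options. The count is therefore no measure of stability.

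Differences at 2 months were sensitive to the slide. With slide as a fixed block, an alternative chosen after seeing the data that uses 1 knockout array here, knockout minus wild type was 0.34 for Hspa5 (0.81 without the block), -0.61 for Herpud1 (-1.50), -1.16 for Chac1 (-2.30) and 0.0046 for Trib3 (-0.996). With normexp or the deposited matrix Hspa5 was 1.28 or 1.27. That block could not be fitted for knockouts against wild types at 12 months. Over all genes, counts past the threshold went from 6 to between 0 and 45 in knockout against wild type at 2 months, from 14 to between 0 and 71 against the hemizygous mice, from 5 to between 0 and 3449 in knockout against wild type at 12 months (3449 with scan day as a block, which rests on 1 wild-type array, animal 641, and 2849 without animal 638) and from 11 to between 0 and 1687 in wild types by age (1687 without animal 641). They went from 0 to at most 19 in hemizygous against wild-type mice, 556 in knockouts of 8 against 2 months, 1 in those of 12 against 8 months and 306 in the genotype difference between ages, and from 2 to at most 1400 in knockouts of 12 against 2 months. Tumor comparisons stayed at 0. Scaling moved the median of all genes at 12 months from -0.12 to 0.06 with quantile normalisation of the processed signal. In knockouts of 2 months against either control Hspa5, Ddit3, Atf4 and Asns stayed positive and Herpud1 and Chac1 negative in all 29 alternatives. Many of these could not change a difference, as stated above. In wild types by age Herpud1 ranged from -1.62 to -0.68 and Chac1 from -2.58 to -0.98.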
